A study of Mus musculus with 12 samples.

Results

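The genes described here were highest in the endometrium of females that had mated with vasectomised males. They were chosen by their measured values: each of the 4 vasectomised arrays had to read above all 8 intact and control arrays, and the vasectomised mean had to exceed both other means by at least 0.3 log2. Of 19938 genes represented on the arrays by 1 transcript cluster each, 53 met these conditions, which is 0.266% of the genes. With the same margins, 436 genes were highest after intact mating, 303 were highest in unmated controls and 17 were lowest after vasectomised mating.

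All females were of the CBAF1 hybrid (CBA crossed with C57Bl/6) at 9 to 16 weeks of age. Mated females were collected 8 h after copulation with a BALB/c male of 12 to 28 weeks, which had either been vasectomised at 6 to 8 weeks or was intact. Controls were unmated virgin females classed as in estrus. Per group, RNA scraped from the endometrial surface of 16 females was combined into 4 pools of 4 females, each hybridised to an Affymetrix Mouse Gene 1.0 ST array, which reads a transcript with probes along its length on a log2 scale. The spread given below is therefore between pools. Controls were collected in the evening of pro-estrus and mated females hours later in the cycle. Mating, stage of the cycle and hour of collection therefore cannot be told apart in any difference from controls. The mated groups were collected at the same interval after mating.

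A vasectomised male delivers the secretions of the accessory glands without sperm and without the fluids of the testis, epididymis and vas deferens. An intact male delivers all of these, so sperm and those fluids cannot be told apart in differences between the mated groups. The authors also allow that vasectomy may slightly change the accessory gland secretions. The lining of the uterus responds to these fluids and to the hormones of the periovulatory period through its luminal and glandular epithelium, which carries membrane pumps, ion channels and enzymes that modify steroids and foreign compounds. Abcb1b and its neighbour Abcb1a encode the mouse P-glycoproteins, pumps that use ATP to export lipophilic drugs and steroids, and Abcb1b is known for its high level in the uterine epithelium of pregnant mice.

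Several short sequences stand behind the members. Of the 53 genes, 2 were miRNA genes, and the mature products cut from both arms of their hairpins are shown. The array rows are annotated to these genes, and where their probes lie was not checked. The sequences are from RefSeq on GRCm38.p6, with the seed (bases 2 to 8) in capitals.
miR-15a-5p: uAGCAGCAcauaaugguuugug
miR-15a-3p: cAGGCCAUacugugcugccuca
miR-452-5p: uGUUUGCAgaggaaacugagac
miR-452-3p: uCAGUCUCaucugcaaagaggu
The seed of miR-15a-5p was shared by 11 mature entries, including miR-15b-5p, miR-16-5p, miR-195a-5p and miR-497a-5p, while the other 3 seeds belonged to 1 mature entry each. Mir15a lies at chr14:61632027-61632110 inside the long non-coding gene Dleu2, and Mir452 lies at chrX:72262224-72262308 inside Gabre, which encodes a subunit of the GABA-A receptor.

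The promoters of the neighbouring P-glycoprotein genes are shown because both genes were members. Each window runs from 250 bases before to 50 bases after the RefSeq start site on GRCm38.p6, on the plus strand of chromosome 5, at chr5:8797897-8798196 for Abcb1b and chr5:8566841-8567140 for Abcb1a. Here and below, the first start site listed for a gene was taken, and which start is used in the endometrium was not measured. Capitals mark matches on either strand to the GC box (GGGCGG), the CCAAT box (CCAAT), the forkhead letters TGTTTAC bound by FoxO factors, or the antioxidant response element letters TGACNNNGC.
Abcb1b: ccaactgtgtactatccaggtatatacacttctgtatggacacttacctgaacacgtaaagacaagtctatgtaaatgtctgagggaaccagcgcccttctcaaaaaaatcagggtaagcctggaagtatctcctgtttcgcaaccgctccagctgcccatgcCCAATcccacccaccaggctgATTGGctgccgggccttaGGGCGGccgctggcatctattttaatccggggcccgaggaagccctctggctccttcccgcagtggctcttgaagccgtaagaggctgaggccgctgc
Abcb1a: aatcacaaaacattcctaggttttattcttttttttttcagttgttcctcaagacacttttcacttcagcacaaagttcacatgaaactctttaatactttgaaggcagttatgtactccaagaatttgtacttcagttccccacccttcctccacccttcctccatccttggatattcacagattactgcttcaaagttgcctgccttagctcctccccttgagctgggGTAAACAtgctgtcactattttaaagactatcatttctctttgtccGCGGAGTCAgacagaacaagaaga
The windows were unlike each other, with 28.7% of bases identical at the same distance from the start. The Abcb1b window held 55.0% G and C and 12 CG pairs, and that of Abcb1a held 40.3% and 2. No motif of those searched was found in both.

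Of the 53 members, 41 had a promoter of 300 bases in the RefSeq table. Among the 12 motifs searched on both strands, the forkhead letters TGTTTAC were found in 6 of these 41 promoters (14.6%), against 3.02% of the 15614 promoters of genes on the array and 3.55% of all 27025 promoters. The windows of 27 bases around each match are shown on the strand of the gene. Among the genes with a match, Abcb1a, Sult1d1 and ccdc198 are described below in detail.
Abcb1a: ttgagctgggGTAAACAtgctgtcact
Bcl2l11: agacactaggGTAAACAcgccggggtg
Dhx40: acgcgcggaaGTAAACAcccctacgtc
Rsrp1: aaaccctgaaGTAAACAaatcctcaaa
Sult1d1: ttttcagtagGTAAACAggggagcggc
ccdc198: tcccccaacaTGTTTACtatgaaaggg
The match lay 20 bases before the start in Abcb1a, 227 in Bcl2l11, 230 in Rsrp1 and 224 in ccdc198, and 16 bases after it in Dhx40 and 32 in Sult1d1. The GC box was in 63.4% of the member promoters, against 49.9% of promoters of genes on the array, a wider gap in percentage points than that of the forkhead letters. For the CCAAT box the shares were 34.1% and 38.2%, for the E-box (CACGTG) 7.32% and 8.38%, and for the antioxidant response element 19.5% and 13.4%. The cAMP response element TGACGTCA and the AP-1 letters TGANTCA were in 0 member promoters, against 2.49% and 6.98% of promoters of genes on the array. These are letter matches in a fixed window, and binding was not measured.

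Per-array medians of all rows lay between 7.25 and 7.32, and arrays of the same group correlated at 0.983 or more. Markers of uterine epithelium, which check the tissue label, averaged 11.66 to 11.71 across the vasectomised arrays, 11.68 to 11.77 across the intact arrays and 11.59 to 11.69 across the control arrays. Of 11 endometrial stroma markers, whose mean was 9.06 to 9.65 on vasectomised, 8.68 to 9.36 on intact and 9.22 to 10.08 on control arrays, 2 were called lower in intact than in control arrays. Of 13 neutrophil markers, with means of 6.88 to 7.03, 7.15 to 7.46 and 6.79 to 6.89 in the same order of groups, 3 were called higher in intact than in control arrays and 3 lower in vasectomised than in intact arrays. Sperm markers averaged 6.22 to 6.27 on vasectomised, 6.31 to 6.39 on intact and 6.20 to 6.38 on control arrays. None of the 53 members was on any of the 17 cell type lists. Members were 0.266% of all genes and these lists held 2 to 13 measured genes each, so nothing is read from this count. The part of cell composition in the members' values was not tested. In RNA of whole tissue, more cells of a type and more RNA per cell cannot be told apart.

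Abcb1b, the gene for an inducible P-glycoprotein, read 8.96, 8.70, 8.72 and 9.10 on the vasectomised arrays, against 8.29, 7.64, 7.95 and 7.63 on the intact arrays and 7.10, 7.38, 7.63 and 6.96 on the control arrays. The lowest vasectomised array stood above the highest intact array, and the lowest intact and highest control arrays met at 7.63. The vasectomised mean of 8.87 ± 0.19 was 1.60 log2 (3.03-fold) above the control mean of 7.27 ± 0.30 and 0.99 log2 (1.99-fold) above the intact mean of 7.88 ± 0.31 (SD, n = 4 arrays each). These 2 differences chose the gene and are a description.

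The difference that the choice did not rank on was that between intact and control arrays. There Abcb1b was 0.61 log2 higher in intact-mated females (SE 0.17, 95% interval 0.24 to 0.98), with an adjusted p of 0.0416 in limma after Benjamini-Hochberg correction over all 35556 rows. Calls required a fold-change of 1.5 or more together with an adjusted p of at most 0.05. The Abcb1b call was near this limit and was lost in 8 of the 12 fits with 1 array left out, namely vasectomised replicate 1, 2 or 3, intact replicate 1 or 3 or control replicate 1, 2 or 4. Without intact replicate 1 the difference was 0.47 log2 with an adjusted p of 0.104, and without control replicate 4 it was 0.51 log2 with an adjusted p of 0.11.

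Abcb1a, which lies 49.6 kb before Abcb1b on chromosome 5 and encodes the other drug-exporting P-glycoprotein, followed the same order with smaller differences. It read 9.07, 8.87, 8.82 and 8.95 on the vasectomised arrays, against 8.70, 8.34, 8.64 and 8.47 on the intact arrays and 8.52, 8.17, 8.63 and 8.11 on the control arrays. Intact and control arrays overlapped, and the difference between them of 0.18 log2 did not pass the test (adjusted p = 0.437, limma). The 2 genes are close in sequence, and the files do not show how far their probes cross-hybridise, so their separate values are uncertain. Abcb4, the next gene on the chromosome and a phospholipid pump of the same subfamily, read 5.93 to 6.06 on vasectomised, 5.93 to 6.18 on intact and 6.01 to 6.10 on control arrays. Its differences were -0.06 log2 from control and -0.08 log2 from intact arrays, and neither passed the test (adjusted p = 0.701 and 0.596, limma). This row is dim, under the 7.28 median of all rows, so a difference may not be detectable in it.

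Of 45 measured ABC transporter genes, a list of membrane pumps, 1 was called higher in vasectomised than in control arrays and 1 higher in vasectomised than in intact arrays, Abcb1b in both cases. The medians over the list were -0.05 and -0.05 log2, beside -0.012 and -0.019 log2 over all genes. In intact against control arrays 3 of the list were called higher, Abca3, Abcb1b and Abcc1, and Abca9 was called lower. Abcc1, a glutathione-conjugate pump, was 0.74 log2 higher in intact than in control arrays (adjusted p = 5.53e-05, limma). Its mean was 10.07 on vasectomised, 10.48 on intact and 9.74 on control arrays, an order unlike that of the P-glycoprotein genes. Abca1, a cholesterol exporter, met both margins but not the separation of arrays, with 10.49 ± 0.41 on vasectomised, 9.89 ± 0.06 on intact and 9.77 ± 1.19 on control arrays (SD, n = 4 each).

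**Figure D1:**
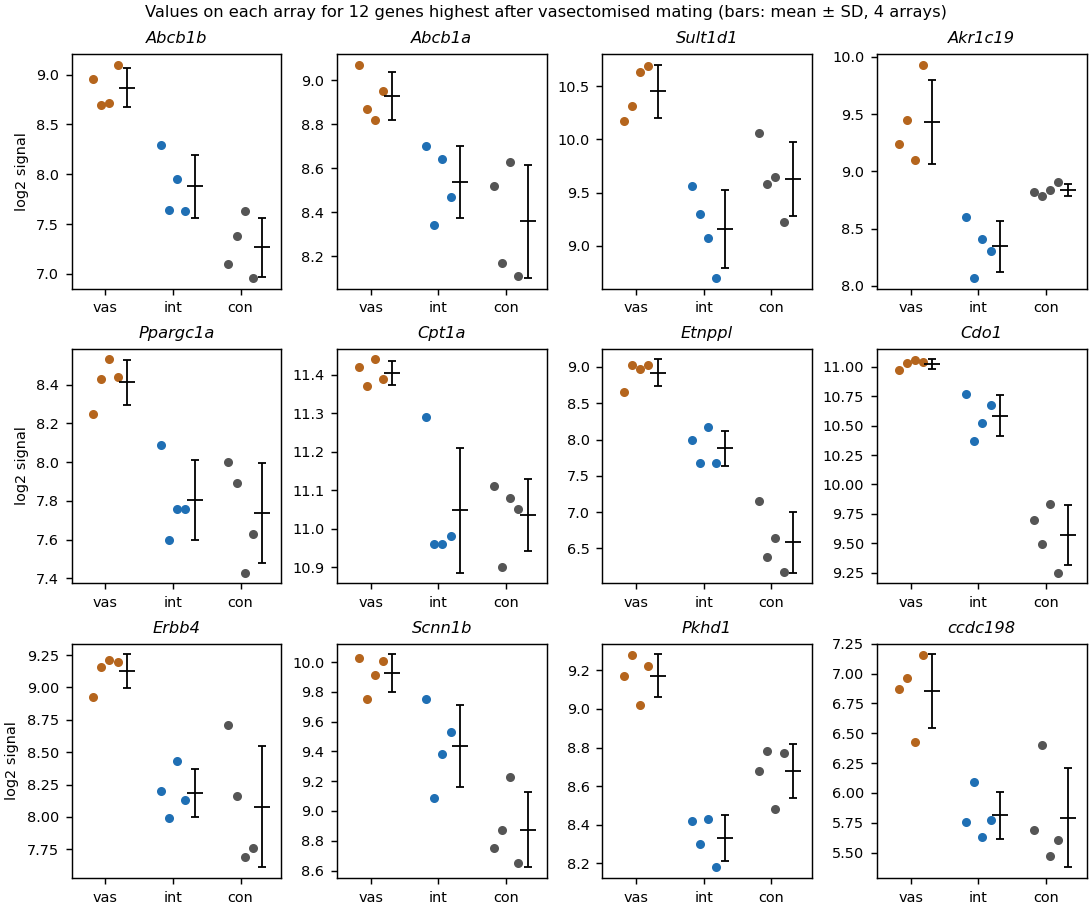
Log2 signal (vertical axis, a separate range for each panel) on each array for 12 of the 53 genes, with the groups along the horizontal axis as vas (vasectomised), int (intact) and con (control). Points are arrays and the bar beside them is the mean ± SD of 4 arrays. In every panel all 4 vasectomised points lie above the 8 others, as the choice required, while the intact points lie above the controls in Etnppl and Cdo1, below them in Akr1c19 and Pkhd1, and overlap or touch them in the other panels.

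The members farthest from intact-mated females were Sult1d1 and Akr1c19. Sult1d1, a cytosolic sulfotransferase, read 10.17, 10.31, 10.63 and 10.69 on the vasectomised arrays, against 9.56, 9.30, 9.07 and 8.70 on the intact arrays and 10.06, 9.58, 9.65 and 9.22 on the control arrays. It was 1.29 log2 (2.45-fold) above intact and 0.82 log2 above control arrays, and intact arrays were 0.47 log2 below controls without passing the test (adjusted p = 0.182, limma). Its neighbours Sult1e1 and Sult1b1, sulfotransferase genes of the same family, averaged 4.51 and 4.50 on the vasectomised arrays, and rows this dim give no comparison with Sult1d1.

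Akr1c19, a gene of the aldo-keto reductase family, read 9.24, 9.45, 9.10 and 9.93 on the vasectomised arrays, against 8.60, 8.07, 8.41 and 8.30 on the intact arrays and 8.82, 8.78, 8.84 and 8.91 on the control arrays. All 4 intact arrays were below all 4 control arrays, by 0.49 log2 on average, and the adjusted p was 0.0685 in limma. The neighbouring paralogues Akr1c12 and Akr1c13 were dim, with vasectomised means of 5.76 and 6.62, and nothing is read from their differences. Akr1c18, which encodes the reductase that inactivates progesterone, had a wider margin over both groups (0.937 log2) but overlapped them, with 8.63, 8.69, 8.47 and 9.37 on vasectomised, 8.62, 7.33, 7.65 and 7.81 on intact and 6.57, 6.78, 8.47 and 7.96 on control arrays.

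Mgst1, a membrane-bound glutathione transferase, averaged 9.97 ± 0.09 on vasectomised, 9.59 ± 0.09 on intact and 9.64 ± 0.07 on control arrays (SD, n = 4 each). Of 57 measured conjugating and reducing enzymes, 3 were called higher in vasectomised than in intact arrays, namely Sult1d1, Akr1c19 and Dhrs4, and 2 higher in vasectomised than in control arrays, Sult1d1 and Gsto2. The list medians of 0.08 and 0.00 log2 were near those of all genes. Slc22a4, a transporter of organic cations and ergothioneine, averaged 9.27 ± 0.14 on vasectomised, 8.84 ± 0.11 on intact and 8.32 ± 0.39 on control arrays. The intact arrays of Slc22a4 overlapped the controls and the difference of 0.52 log2 missed the threshold (adjusted p = 0.0538, limma), while without control replicate 1 it was 0.67 log2 and was called (adjusted p = 0.00876).

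Of 3 members that bear on mitochondrial fatty acid use, grouped by hand and not tested as a set, 1 is a coactivator and the others act in fatty acid import. Ppargc1a, which encodes the coactivator PGC-1α that raises mitochondrial and fasting genes, read 8.25, 8.43, 8.53 and 8.44 on the vasectomised arrays, against 8.09, 7.60, 7.76 and 7.76 on the intact arrays and 8.00, 7.89, 7.43 and 7.63 on the control arrays. Cpt1a, the rate-limiting carnitine transferase of fatty acid import, read 11.42, 11.37, 11.44 and 11.39 on the vasectomised arrays, against 11.29, 10.96, 10.96 and 10.98 on the intact arrays and 11.11, 10.90, 11.08 and 11.05 on the control arrays. Its intact values held 1 high array, replicate 1, and 3 within 0.02 log2 of each other. Slc25a20, the carnitine-acylcarnitine carrier of the inner membrane, averaged 8.98 ± 0.07 on vasectomised, 8.51 ± 0.03 on intact and 8.54 ± 0.09 on control arrays (SD, n = 4 each).

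Intact minus control was 0.06 log2 for Ppargc1a (95% interval -0.22 to 0.35), 0.01 for Cpt1a (-0.16 to 0.19) and -0.03 for Slc25a20 (-0.16 to 0.11), and each interval lay inside the 0.58 log2 of a 1.5-fold change. Cpt2, the inner-membrane partner of Cpt1a, averaged 9.62 on vasectomised, 9.37 on intact and 9.50 on control arrays and was not called in any comparison. In the list of 32 measured fasting and FoxO target genes, 3 were called higher in vasectomised than in intact arrays, Ppargc1a, Pdk4 and Txnip. Pdk4, which restrains glucose oxidation, and Txnip, which restrains glucose uptake, were called lower in intact than in control arrays, by 1.17 and 0.65 log2. They differed from control by -0.17 and 0.16 log2 in vasectomised arrays. Of the same list 2 were called higher in intact than in control arrays, Ppargc1b and Bnip3, by 0.69 and 0.75 log2. Those differed from control by 0.43 and 0.30 log2 in vasectomised arrays, and neither was called there. The list median was 0.13 log2 for vasectomised against intact arrays, beside -0.019 for all genes. In the list of 49 measured lipid handling genes and PPAR targets, which holds Slc25a20, 2 were called higher (Cd36 and Ttpa) and 2 lower (Acaca and Elovl6) in vasectomised than in intact arrays, with a median of 0.01 log2.

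Ppargc1a and Neurl1b were the members with another row of the same symbol, which the choice did not read. The other Ppargc1a row read 7.96, 8.08, 8.08 and 8.14 on the vasectomised arrays, against 7.53, 7.07, 7.16 and 6.96 on the intact arrays and 7.29, 7.44, 6.89 and 7.09 on the control arrays. There too the 4 vasectomised arrays stood above the 8 others, by 0.89 log2 over control and 0.88 log2 over intact means. The other Neurl1b row, of a ubiquitin ligase that acts on Notch ligands, averaged 7.55 ± 0.03 on vasectomised, 7.26 ± 0.17 on intact and 7.20 ± 0.18 on control arrays (SD, n = 4 each). The vasectomised arrays again did not overlap the others. The differences of 0.35 log2 from control and 0.29 log2 from intact arrays did not pass the test (adjusted p = 0.0784 and 0.164, limma). These rows hold other probes hybridised with the same RNA, so they are a second reading of the same pools and not further samples.

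**Figure D2:**
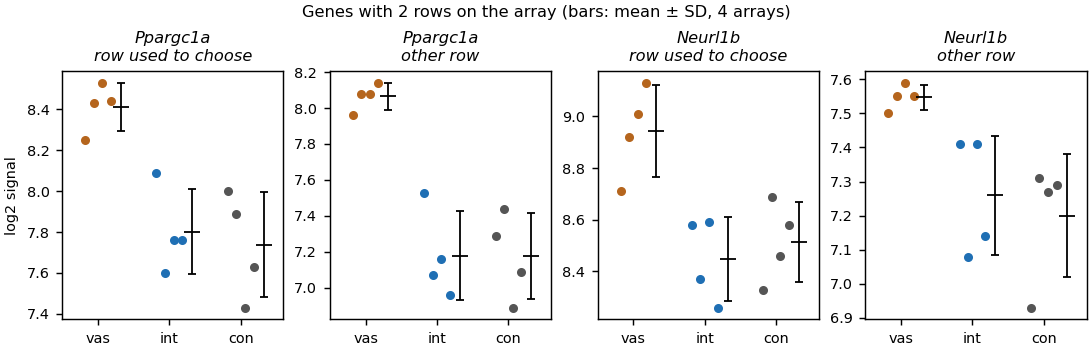
Log2 signal (vertical axis) on each array for the members with 2 rows, Ppargc1a and Neurl1b, with vas, int and con standing for vasectomised, intact and control arrays. Points are arrays and bars are the mean ± SD of 4 arrays. In the other Ppargc1a row the vasectomised arrays lie between 7.96 and 8.14 and the remaining arrays at or below 7.53.

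Of 3 members that break down phosphoethanolamine, cysteine or the dipeptide carnosine, Etnppl and Cdo1 had intact arrays between the other groups. Etnppl, which breaks down phosphoethanolamine, read 8.65, 9.03, 8.97 and 9.03 on the vasectomised arrays, against 7.99, 7.67, 8.17 and 7.68 on the intact arrays and 7.15, 6.38, 6.64 and 6.18 on the control arrays. The 3 groups did not overlap. The vasectomised mean was 2.33 log2 (5.03-fold) above control and 1.04 log2 above intact, and intact-mated females were 1.29 log2 above controls (SE 0.19, adjusted p = 0.000828, limma).

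Cdo1, the dioxygenase that starts the breakdown of cysteine towards taurine, read 10.97, 11.03, 11.06 and 11.04 on the vasectomised arrays, against 10.77, 10.37, 10.52 and 10.68 on the intact arrays and 9.70, 9.49, 9.83 and 9.25 on the control arrays. These groups were also separate, and intact-mated females were 1.02 log2 above controls (SE 0.12, adjusted p = 0.000181, limma). Cndp1, a carnosine dipeptidase, averaged 10.54 ± 0.09 on vasectomised, 10.04 ± 0.17 on intact and 10.04 ± 0.36 on control arrays (SD, n = 4 each), with intact and control arrays overlapping. Of 41 measured genes on the list of amino acid catabolism, 2 were called higher in vasectomised than in control arrays, Etnppl and Cdo1, and the list median was -0.04 log2. The substrate of Etnppl, phosphoethanolamine, is not itself an amino acid.

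Erbb4, a receptor tyrosine kinase for neuregulins and heparin-binding EGF, read 8.93, 9.16, 9.21 and 9.20 on the vasectomised arrays, against 8.20, 7.99, 8.43 and 8.13 on the intact arrays and 8.71, 8.16, 7.69 and 7.76 on the control arrays. Intact and control arrays overlapped, with a difference of 0.11 log2 (95% interval -0.30 to 0.52). Its relatives Egfr, Erbb2 and Erbb3 were 0.15, 0.21 and 0.31 log2 higher in vasectomised than in intact arrays, and none passed the test (adjusted p = 0.395, 0.383 and 0.287, limma). Hbegf, a ligand of Erbb4, averaged 9.74 ± 0.14 on vasectomised, 9.81 ± 0.12 on intact and 8.93 ± 0.41 on control arrays (SD, n = 4 each). It was called higher in both mated groups, by 0.82 and 0.89 log2 over controls. The ligands Nrg1 and Btc were called in no contrast. Nrg1 averaged 7.76 ± 0.17, 7.70 ± 0.24 and 7.77 ± 0.51 in vasectomised, intact and control arrays, and Btc 7.42 ± 0.13, 7.27 ± 0.11 and 7.25 ± 0.19. Lrig1, a membrane protein that restrains ERBB receptors, averaged 10.86 ± 0.02 on vasectomised, 10.37 ± 0.10 on intact and 10.54 ± 0.26 on control arrays.

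Other members act in signalling. Acvr2a, an activin receptor, had vasectomised values of 9.0, 8.82, 8.99 and 8.98, against 8.81, 8.38, 8.54 and 8.41 on the intact arrays and 8.62, 8.46, 8.50 and 8.55 on the control arrays, so that its lowest vasectomised array cleared the highest intact array by 0.001 log2. Bcl2l11, which encodes the pro-apoptotic protein BIM, averaged 9.79 ± 0.14, 9.45 ± 0.13 and 9.37 ± 0.28 in vasectomised, intact and control arrays. Adgrg1, an adhesion receptor, averaged 11.06 ± 0.07, 10.52 ± 0.08 and 10.70 ± 0.19, and Pde7a, a cAMP phosphodiesterase, 10.30 ± 0.10, 9.91 ± 0.15 and 9.88 ± 0.11 in the same order (SD, n = 4 each). Sestd1 averaged 10.48 ± 0.16, 10.04 ± 0.15 and 10.06 ± 0.21. Across these 8 signalling members, Erbb4, Lrig1, Acvr2a, Neurl1b, Adgrg1, Pde7a, Bcl2l11 and Sestd1, intact minus control lay between -0.18 and 0.11 log2. None was called, beside 2.78% of all genes called higher and 2.11% called lower, so nothing is read from this count.

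A further 9 members, grouped by hand and not tested as a set, act in transport, secretion, the cell surface or the matrix. Scnn1b, the β subunit of the epithelial sodium channel that absorbs uterine fluid, read 10.03, 9.75, 9.91 and 10.01 on the vasectomised arrays, against 9.75, 9.09, 9.38 and 9.53 on the intact arrays and 8.75, 8.87, 9.23 and 8.65 on the control arrays. The gap between its lowest vasectomised and highest intact array was under 0.001 log2. Intact-mated females were 0.56 log2 above controls, with an adjusted p of 0.0294 in limma but a fold-change below 1.5, so the gene was not called. It was called without intact replicate 2 (0.67 log2) or without control replicate 3 (0.68 log2). Of its partner subunits, whose rows are dim, Scnn1a averaged 6.68 ± 0.14 on vasectomised, 6.93 ± 0.14 on intact and 6.35 ± 0.15 on control arrays, and Scnn1g 6.58 ± 0.13, 6.56 ± 0.17 and 6.27 ± 0.18 (SD, n = 4 each). Of 24 measured genes of epithelial sodium and calcium handling, Scnn1b, Atp1b1 and S100g were called higher in vasectomised than in control arrays and 0 were called against intact arrays.

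Pkhd1, which encodes fibrocystin of the primary cilium, read 9.17, 9.28, 9.02 and 9.22 on the vasectomised arrays, against 8.42, 8.30, 8.43 and 8.18 on the intact arrays and 8.68, 8.78, 8.48 and 8.77 on the control arrays. The 3 groups were separate, with intact arrays lowest, and intact minus control was -0.35 log2 (SE 0.09, adjusted p = 0.0258, limma), below the fold threshold. Tmprss6, a membrane serine protease known from liver, read 9.17, 9.15, 9.02 and 9.26 on the vasectomised arrays, against 8.44, 8.31, 8.61 and 8.57 on the intact arrays and 8.82, 8.37, 8.58 and 8.35 on the control arrays. Its intact and control arrays overlapped (difference -0.05 log2).

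Wfdc16, of the WAP four-disulfide family, averaged 7.38 ± 0.18 on vasectomised, 6.61 ± 0.20 on intact and 6.43 ± 0.52 on control arrays. Its row is dim (mean 6.81), and control replicate 2 at 7.17 lay 0.013 log2 below the lowest vasectomised array. Myo6, a motor protein of the apical cytoskeleton, read 10.32, 10.27, 10.27 and 10.37 on the vasectomised arrays, against 10.11, 9.97, 9.97 and 9.94 on the intact arrays and 9.66, 9.77, 9.63 and 9.41 on the control arrays, with the 3 groups separate and intact 0.38 log2 above control (adjusted p = 0.00827, limma, fold-change below 1.5). St6galnac5, a sialyltransferase of gangliosides, averaged 8.57 ± 0.12, 8.05 ± 0.15 and 8.09 ± 0.31 in the same order. Sytl3, an adaptor of exocytosis, averaged 7.70 ± 0.04, 7.30 ± 0.09 and 7.17 ± 0.39, Podn, a small leucine-rich proteoglycan, 7.91 ± 0.12, 7.58 ± 0.07 and 7.38 ± 0.19, and Txndc16, a thioredoxin-domain protein, 8.57 ± 0.12, 8.04 ± 0.14 and 7.95 ± 0.33 (SD, n = 4 each).

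Among lipid enzymes, Alox12e, a 12-lipoxygenase first described in mouse epidermis, read 9.82, 9.75, 10.50 and 10.36 on the vasectomised arrays, against 9.28, 9.21, 9.47 and 8.95 on the intact arrays and 9.12, 9.42, 8.77 and 7.83 on the control arrays. Control replicate 4 was the lowest array of all, and the intact minus control difference of 0.44 log2 had a 95% interval of -0.19 to 1.07. Nceh1, which hydrolyses cholesterol esters, read 11.08, 10.85, 10.86 and 11.36 on the vasectomised arrays, against 10.84, 10.57, 10.78 and 10.65 on the intact arrays and 10.01, 10.27, 10.08 and 9.70 on the control arrays. It was called higher in intact-mated females than in controls, by 0.69 log2 (SE 0.13, adjusted p = 0.00596, limma). Sgms1, a sphingomyelin synthase, averaged 9.96 ± 0.01, 9.62 ± 0.11 and 9.57 ± 0.16 in vasectomised, intact and control arrays, and Acer3, a ceramidase, 10.98 ± 0.06, 10.67 ± 0.18 and 10.65 ± 0.08. Hexa, a subunit of lysosomal hexosaminidase, averaged 10.19 ± 0.07, 9.88 ± 0.12 and 9.75 ± 0.24 (SD, n = 4 each).

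Of the 3 small RNA genes, Mir15a and Mir452 lie inside host genes, whose values are given beside theirs. Mir15a read 10.35, 10.59, 10.41 and 10.30 on the vasectomised arrays, against 10.25, 9.96, 10.17 and 9.87 on the intact arrays and 9.87, 9.66, 9.81 and 9.61 on the control arrays. Intact minus control was 0.33 log2 and did not pass the test (adjusted p = 0.0562, limma). Mir16-1, which is cut from the same Dleu2 transcript and whose 5p product shares the miR-15a-5p seed printed above, averaged 7.70 ± 0.18 on vasectomised, 7.40 ± 0.18 on intact and 6.87 ± 0.29 on control arrays, with overlap between the mated groups. The dim Dleu2 row averaged 4.93 ± 0.18, 4.64 ± 0.36 and 4.46 ± 0.13 in vasectomised, intact and control arrays (SD, n = 4 each) and passed the test in no contrast (adjusted p 0.117 or more, limma).

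Mir452 read 4.79, 4.85, 4.78 and 4.74 on the vasectomised arrays, against 4.72, 4.38, 4.49 and 4.14 on the intact arrays and 4.2, 4.38, 4.43 and 4.32 on the control arrays. With Snora2b, ccdc198, Wfdc16, Olfr920 and Zfp959 it was among the 6 members whose mean was under 7.28, the median of all rows. Its host Gabre averaged 8.05 ± 0.17 on vasectomised, 7.87 ± 0.13 on intact and 7.27 ± 0.04 on control arrays (SD, n = 4 each) and was called higher than control in both mated groups, by 0.78 and 0.60 log2 (adjusted p = 0.000779 and 0.00101, limma), while the mated groups differed by 0.18 log2 (adjusted p = 0.314). Snora2b, a small nucleolar RNA that guides pseudouridylation, averaged 6.78 ± 0.06, 6.39 ± 0.19 and 6.28 ± 0.31. The array cannot tell a mature miRNA from its precursor or host transcript.

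The remaining members include nuclear proteins. Six4, a homeobox factor, averaged 9.36 ± 0.11 on vasectomised, 8.83 ± 0.22 on intact and 8.82 ± 0.12 on control arrays, and Pcgf6, a Polycomb protein, 9.60 ± 0.13, 9.17 ± 0.10 and 9.03 ± 0.30. Rev3l, the catalytic subunit of DNA polymerase zeta, averaged 10.86 ± 0.13, 10.30 ± 0.16 and 10.50 ± 0.22 (SD, n = 4 each). The other 5 of this group, Zfp608, Zfp715, Zfp959, Dhx40 (a helicase) and Rsrp1, were 0.31 to 0.35 log2 above controls. Intact minus control lay between -0.20 and 0.15 log2 over the 8 genes.

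The vesicle and organelle genes were Vps13c (lipid transfer), Tmem106b (lysosomes), Tax1bp1 (autophagy), Nipsnap3b (mitochondria) and Rmnd5b (a ubiquitin ligase subunit). They were 0.31 to 0.38 log2 above controls and 0.35 to 0.52 log2 above intact arrays. The coiled-coil gene ccdc198 read 6.87, 6.96, 6.43 and 7.16 on the vasectomised arrays, against 5.76, 6.09, 5.63 and 5.77 on the intact arrays and 5.69, 6.40, 5.47 and 5.61 on the control arrays. With Etnppl it had the widest lesser margin of the members, 1.04 log2 (the lesser margin is the smaller of the differences from intact and control means), with its lowest vasectomised array 0.03 log2 above control replicate 2. The ccdc198 row is dim, with a mean of 6.15 over the 12 arrays, under the 7.28 median of all rows. Olfr920, an olfactory receptor gene, averaged 7.42 ± 0.12, 6.67 ± 0.25 and 6.77 ± 0.23 in vasectomised, intact and control arrays, and Gm10258, annotated as a miscellaneous RNA, 8.00 ± 0.08, 7.58 ± 0.22 and 7.66 ± 0.18 (SD, n = 4 each).

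**Figure D3:**
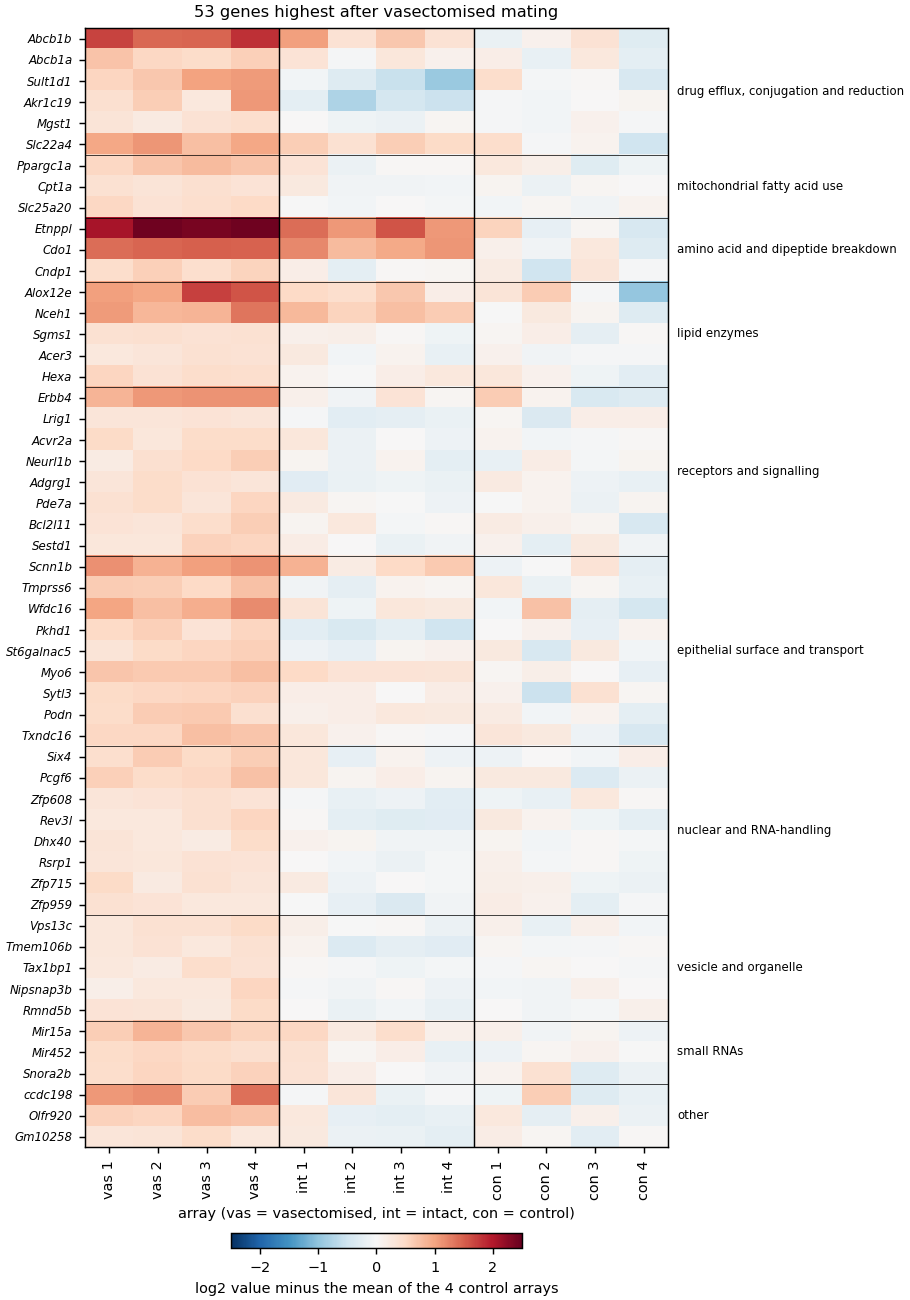
Log2 value on each array minus the mean of the 4 control arrays (colour, red higher and blue lower) for the 53 genes (rows, grouped by role) and 12 arrays (columns). The median over the 53 genes was 0.45 to 0.56 on vasectomised, -0.06 to 0.16 on intact and -0.10 to 0.11 on control arrays. Among the rows with the intact mean above the control mean are Etnppl, Cdo1, Nceh1 and Abcb1b, which were called. Roles were assigned by hand.

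Over all 53 members, the vasectomised mean exceeded the control mean by 0.31 to 2.33 log2 (median 0.47) and the intact mean by 0.31 to 1.29 log2 (median 0.44). Of the members, 17 passed the call against control, beside 1.19% of all genes, and 10 passed it against intact, beside 0.271% of all genes, and since these contrasts chose the members nothing is read from the counts. Just inside the limit, Nipsnap3b had a lesser margin of 0.307 log2 and Myo6 of 0.310 log2, and just outside it Lratd1 had 0.295 and Zscan29 0.293 log2. Another 84 genes met the margins with overlapping arrays, among them Kap (lesser margin 0.967 log2) and Akr1c18, and 150 genes had separate arrays with smaller margins.

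The contrast of intact with control arrays is given here for the members beside all genes. The rule capped both groups at the lowest vasectomised array but did not order them. The 3 contrasts share arrays with one another, so their values are given side by side and were not set against each other. Of the 53 members, 4 were called higher in intact than in control arrays, Etnppl, Cdo1, Nceh1 and Abcb1b, against 2.78% of all genes, and 0 were called lower, against 2.11% of all genes (limma). At an unadjusted p under 0.05 there were 12 members, while 27.8% of all genes passed that limit, and at an adjusted p of at most 0.05 without the fold threshold there were 7, adding Scnn1b, Myo6 and Pkhd1, while 13.6% of all genes passed that limit. In 39 members the intact mean was within 0.2 log2 of the control mean, in 10 it was higher by more and in 4 lower by more. The 95% interval of the difference lay within a 1.5-fold change either way in 43 members. The median difference was 0.01 log2, beside 0.005 log2 over all genes.

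By single arrays, all 4 intact arrays stood above all 4 control arrays in 5 members, Etnppl, Cdo1, Mir15a, Nceh1 and Myo6, beside 10.4% of all genes. All 4 stood below in 2 members, Akr1c19 and Pkhd1, beside 7.91% of all genes. The groups overlapped in the other 46.

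**Figure D4:**
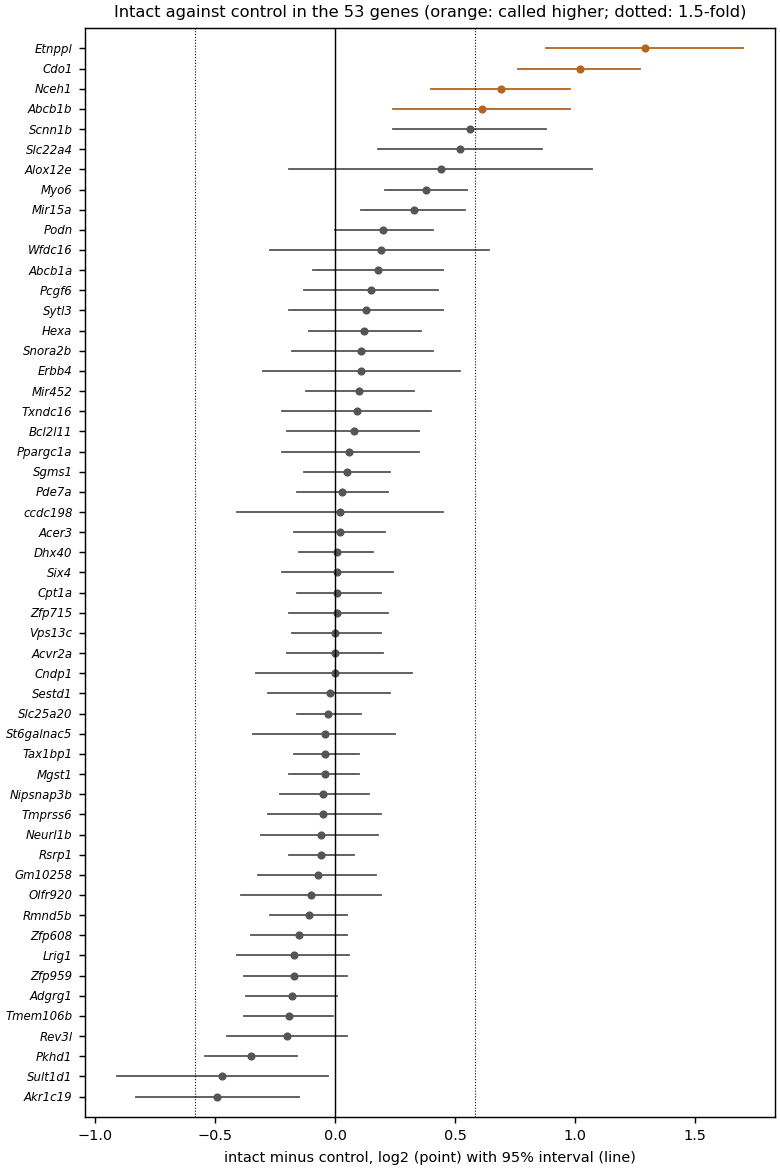
Intact minus control in log2 (horizontal axis, points) with its 95% interval from limma (lines) for the 53 genes, ordered by the difference, with dotted lines at a 1.5-fold change. The 4 genes called higher, Etnppl, Cdo1, Nceh1 and Abcb1b, are in orange, and the differences run from -0.49 in Akr1c19 to 1.29 in Etnppl.

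The members' arrays were not alike within groups. Among the 8 intact and control arrays, intact replicate 1 was the highest in 21 of 53 members and control replicate 1 in 9, while intact replicate 4 was highest in 0. Among the vasectomised arrays, replicate 4 was the highest in 23 members and replicates 1 and 2 were the lowest in 17 each. The number of genes meeting the rule was 80 without intact replicate 1 and 83 without control replicate 1, against 53 with all arrays, and 33 of the 53 met it whichever single array was left out.

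The same measure was also read on arrays that had no part in a choice. The rule was applied without the arrays of 1 replicate number from each group, and the 3 arrays left out were then compared. Of the 144 genes chosen without number 1, the left-out vasectomised array was the highest of the 3 in 61.8%, against 22.4% of all genes. For numbers 2, 3 and 4, with 79, 85 and 55 genes chosen, the shares were 78.5%, 80.0% and 89.1%, against 36.6%, 26.5% and 27.6% of all genes. The left-out vasectomised array exceeded both others by 0.3 log2 or more in 11.8%, 40.5%, 41.2% and 63.6% of the chosen genes in the order of the numbers, against 1.14% to 2.43% of all genes. The members were 52, 45, 49 and 40 of the genes chosen in the 4 readings, which share arrays with one another.

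**Figure D5:**
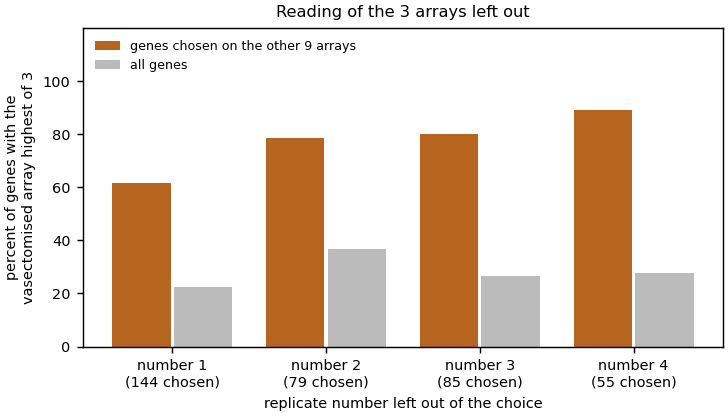
Percent of genes (vertical axis) in which the vasectomised array was the highest of the 3 arrays left out of the choice, for each replicate number left out (horizontal axis). Orange bars are genes chosen on the other 9 arrays and grey bars all 19938 genes, and the orange bars run from 61.8% to 89.1%.

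The 53 genes lay on 19 chromosomes, and Abcb1a and Abcb1b were the members that neighboured each other. The 104 neighbouring genes that were not members had medians of 0.03 log2 for vasectomised against control and 0.05 log2 for vasectomised against intact arrays, and 10 of them were at least 0.2 log2 higher in both. Protein-coding genes made up 49 of the members. Their genes spanned a median of 36.5 kb on GRCm38.p6, against 17.7 kb over all genes with coordinates. Of the members, 14 were on one or more of the 15 pathway lists. The lists of glucocorticoid-induced, prostaglandin, semaphorin, Notch, interferon and complement genes, of 22 to 44 measured genes each, held 0 of them. Members were 0.266% of all genes and the lists were written with earlier results known, so nothing is read from these counts.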

How the data were processed

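Endometrial RNA pools were measured on 12 arrays, 4 per group, with 300 ng of RNA labelled per array. In Partek Genomics Suite (version not given in the sources used here) probe values were handled by the authors with RMA background correction, a correction for GC content and averaging over the probes of a cluster. The deposited log2 values cover 35556 transcript clusters. The number of array columns not used was 0.

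Symbols came from the platform annotation, in which 21789 clusters had 1 symbol and 1621 several, and 21698 of those with 1 symbol matched a RefSeq gene (GRCm38.p6). Where clusters shared a symbol, the one with the highest mean over 12 arrays stood for the gene. A model with a mean for each group was fitted to every cluster in limma 3.58.1 (R 4.3.3; prior degrees of freedom 3.26, residual 9), with Benjamini-Hochberg correction over all clusters and the thresholds of the methods, and the code was tested on simulated data. The members, gene lists, marker lists and motifs were chosen with earlier results of these data known. Genes given in detail were Abcb1b, the 25 members with the largest lesser margin (the smaller of both differences from the vasectomised mean) and up to 3 members per list. The other members are named to account for all 53, and neighbours, partner subunits and ligands by their relation to a member, after values had been seen.

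The number of arrays, 4 per group, limits the precision, and p-values measure the spread between these pools. Alternatives were quantile normalization, median centring, trend and robust moderation, no moderation, a replicate block, a fit on only 2 groups, exclusion of dim clusters (mean below 7.28), the mean of all clusters of a gene, no fold threshold, margins of 0.2 and 0.5 log2, and leaving out each array.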

Additional observations from a re-analysis of the deposited data

Results flagged for a closer look

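Among 87 groups of 4 arrays of the members given in detail, 5 held an array far from the other 3 by Dixon's test, which flags about 5% of groups by chance. In vasectomised arrays these were replicate 1 of Etnppl at 8.65 and replicate 2 of Acvr2a at 8.82, both the lowest of their group. In intact arrays they were replicate 1 of Olfr920 at 7.04 and replicate 1 of Cpt1a at 11.29, both the highest, and replicate 3 of Sytl3 at 7.17, the lowest.

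In Akr1c19 and Pkhd1 every intact array was below every control array, by means of -0.49 and -0.35 log2, while the vasectomised arrays were all above the controls, as the choice of members required. The difference between these directions was not tested, since the vasectomised side chose the genes.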

How the results depend on the processing

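The rule gave 53 genes. It gave 37 after quantile normalization, all among the 53, 43 after median centring (42 of them shared), 53 from the mean of all clusters of a gene, 47 without dim clusters, 104 at a margin of 0.2 log2 and 14 at 0.5 log2, and 48 to 83 with 1 array left out. The count of members called higher in intact than in control arrays was 4, and 3 to 5 with 1 array left out. It was 0 for lower in every setting but that without a fold threshold, which gave 1 (Pkhd1). The contrasts with vasectomised arrays chose the members, so the counts below for these contrasts are a description and nothing is read from them. Against control, 17 vasectomised calls became 36 without a fold threshold and 11 to 20 with 1 array left out (11 without vasectomised replicate 4). Against intact, 10 became 28 without a fold threshold, 6 without variance moderation and 4 to 13 with 1 array left out, with 6 without vasectomised replicate 3, 5 without replicate 4, 5 without intact replicate 2 and 4 without intact replicate 4. Of genes chosen at 0.5 log2 without number 4, the left-out vasectomised array was highest in 100%, against 89.1% at 0.3 log2. The replicate numbers gave no sign of pairing the arrays. Deviations from the group mean, over all rows, correlated at -0.26 to 0.20 between same-numbered arrays of different groups. Between arrays of different groups and numbers they correlated at -0.22 to 0.27. With the replicate block, 3 members were called higher in intact than in control arrays, 14 vasectomised members against control and 8 against intact. The Abcb1b call in intact against control was lost in 10 of these settings (adjusted p 0.0517 to 0.11). The 4 pools per group limit the precision.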
